A study of Mus musculus with 12 samples.

Results

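The nuclear genes of oxidative phosphorylation were followed across liver RNA-seq libraries of 4 mouse genotypes. Members were all genes whose symbol begins with Nduf, Uqcr, Cox4 to Cox8, Atp5 or Sdha to Sdhd, together with Cyc1 and Cycs, and whose reads summed to at least 10 over the 12 libraries. The symbol rule matched 94 of 22609 genes, and 91 of them reached that sum. Cox7b2 and Cox8c had 0 reads and Ndufs5 had 1 read, so these 3 were left out. A filter on low counts then kept 87 of the 91 members among 13684 genes tested. The 4 members that did not pass it were Cox4i2, Cox6a2, Cox6b2 and Cox8b.

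The livers came from adult mice with no treatment, born to a cross between heterozygous Alb/AEG-1 and heterozygous Alb/c-Myc animals, with 3 mice a genotype. AEG1 livers carried the Alb/AEG-1 transgene, MYC livers carried Alb/c-Myc, AEG1_MYC livers carried both, and WT livers carried neither. Alb names the albumin promoter, which is active in hepatocytes, so the transgenes were directed to 1 cell type of a mixed tissue. AEG-1 is the product of the Mtdh gene. The labels give neither sex, exact age, strain, founder line nor batch, and the series title places the study in liver carcinogenesis, although the design describes the mice as naïve.

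Oxidative phosphorylation is carried out in the mitochondrial inner membrane. Complex I takes electrons from NADH and complex II takes them from succinate, both pass them through coenzyme Q to complex III, cytochrome c carries them to complex IV, and oxygen accepts them there. The protons moved on the way drive complex V, the ATP synthase. Most subunits are encoded in the nucleus and imported into mitochondria, and a small set is encoded by mitochondrial DNA. The liver uses the pathway to pay for gluconeogenesis, urea synthesis and lipid handling. MYC is a transcription factor that binds E-box DNA and is known in other cells to act on genes for mitochondrial proteins. The mitochondrially encoded subunits are not analysed here.

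Each library held 21931197 to 40552316 reads in genes, and members took 1.03% to 1.30% of them. Values are read counts scaled to a common library size (CPM), with library sizes adjusted by the trimmed mean of M values (TMM), which sets the bulk of genes level between libraries, so that a direction below is relative to that bulk. Myc averaged 35.9 ± 15.9 CPM in MYC livers and 98.8 ± 57.9 CPM in AEG1_MYC livers, against 4.02 ± 0.53 CPM in AEG1 livers and 3.26 ± 1.30 CPM in WT livers (SD, n = 3 each), in the direction of the labels. Mtdh averaged 97.4 ± 4.04 CPM in AEG1 livers and 97.6 ± 12.9 CPM in AEG1_MYC livers, against 97.2 ± 1.93 CPM in MYC livers and 100.3 ± 1.11 CPM in WT livers. The species of the AEG-1 transgene is not given, so the mouse Mtdh row does not check that label. AEG1_MYC replicate 2 stood apart: its summed hepatocyte markers (Alb, Apoa1, Ttr, Cps1, Hnf4a and Tat) reached 33577 CPM, against 101177 to 109367 CPM in WT livers, most of which is Alb. Of the 6 markers, Alb (24138 CPM, against 83489 to 92835), Ttr (2367, against 4638 to 5447), Cps1 (175, against 2765 to 5120) and Tat (444, against 1209 to 1807) lay below the WT range in that library. Apoa1 (5703, against 4461 to 6488) and Hnf4a (749, against 737 to 1066) lay inside it. The library lay at 99.2 on the first principal component while the other 11 libraries lay between -27.2 and 34.1. In bulk tissue, fewer cells of a type and less RNA per cell cannot be told apart.

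The promoters are shown because MYC binds the E-box CACGTG, and because the NRF1 core, a palindrome shown in capitals in the stretch of Ndufaf4, is the textbook element of respiratory genes. RefSeq windows from 250 bases before to 50 bases after the gene start were available for 75 members, in build GRCm38.p6. CACGTG occurred in 7 members (Atp5f1, Atp5g1, Atp5g3, Atp5l, Atp5sl, Ndufa7 and Ndufv1), 9.33% of the 75, against 8.09% of all 27025 genes. Some genes have more than 1 window, and by window the shares were 11.1% of the 81 member windows and 7.15% of all 32851. The NRF1 core occurred in 6 members (Atp5g2, Atp5k, Cox6a1, Ndufa11, Ndufaf4 and Uqcrc1), 8.0% of the 75, against 1.07% of all genes. By window it was 7.41% of member windows against 0.971% of all windows. Both motifs read the same on both strands and do not overlap each other in a member. The ETS core CCGGAAGT, read on both strands, occurred in 5 members, 6.67% of the 75, against 4.31% of all genes. By window it was 6.17% of member windows against 3.89% of all windows. Of 12 stretches that hold an E-box or NRF1 core before the start, the 5 that touch no exon of any gene in GENCODE vM21 are printed in the direction of the gene, with the motif in capitals, first those with an E-box and then the one with an NRF1 core.
Atp5g3: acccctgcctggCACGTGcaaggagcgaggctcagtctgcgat
Atp5l: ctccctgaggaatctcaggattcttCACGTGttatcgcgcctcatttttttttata
Atp5sl: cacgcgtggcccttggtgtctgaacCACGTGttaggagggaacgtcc
Ndufv1: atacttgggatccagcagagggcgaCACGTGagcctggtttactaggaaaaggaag
Ndufaf4: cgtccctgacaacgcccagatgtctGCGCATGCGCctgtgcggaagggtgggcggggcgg

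In the same order, these stretches lie at chr2:73911534-73911576 (minus strand), chr9:44920859-44920914 (minus), chr7:25619367-25619413 (plus), chr19:4012894-4012949 (minus) and chr4:24897945-24898004 (plus). The stretches of Atp5g3 and Atp5sl are cut short, by the edge of the window and by the gene start. Median fitted log2 fold changes of the 7 members with an E-box in the window and the 66 tested members without one were 0.08 and 0.03 in MYC against WT livers, -0.02 and -0.05 in AEG1_MYC against WT livers, and 0.03 and -0.03 between Myc carriers and non-carriers. For the NRF1 core, over 6 members with it and 67 without, they were 0.11 and 0.03, 0.09 and -0.05, and -0.04 and -0.03 in the same comparisons. For the ETS core, over 5 and 68 members, they were 0.07 and 0.03, -0.04 and -0.04, and -0.05 and -0.03. These medians describe sequence letters in a fixed window and no test was made of them.

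Transcript levels of members spanned a wide range in WT liver when divided by the length of the longest coding transcript. The catalytic F1 subunit Atp5b was highest, at 736 ± 31.2 CPM per kb (SD, n = 3), followed by the c-ring gene Atp5g3 at 509 ± 28.6 and the other large F1 subunit Atp5a1 at 486 ± 29.3 CPM per kb. Atp5g3 and Atp5a1 differed by less than their SD. Ndufa4, now placed with complex IV, followed at 376 ± 19.2 CPM per kb, Cox4i1 at 306 ± 22.3 and Sdha at 281 ± 27.0. Leaving aside members under 3 CPM in every library, Cycs, which encodes cytochrome c, was lowest at 1.35 ± 0.0753 CPM per kb, followed by the acyl carrier protein Ndufab1 at 1.51 ± 0.173 and the c-ring gene Atp5g1 at 1.8 ± 0.0557. The longest coding transcripts of Cycs, Ndufab1 and Atp5g1 are 3123, 3479 and 4715 bases, against 723 for Atp5g3 and 1916 for Atp5b. Their low place therefore depends on the transcript chosen, and which transcripts these livers express was not examined. Atp5g1 and Atp5g3 encode the same mature c subunit from different genes, and Atp5g3 was the higher of the pair by this measure. Reads with no unique position were not counted, and they made up 46.5% to 58.0% of alignments. For Cycs, 28.5% of its 50-base windows recur in other annotated genes, and for Atp5l 68.5% do, while 53 of the 91 members share no such window. Levels of the 10 members with at least 20% shared windows, Atp5h, Uqcrb, Ndufb4, Ndufs3 and Cox7c among them, are therefore uncertain, more so than their ratios between genotypes.

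**Figure D1:**
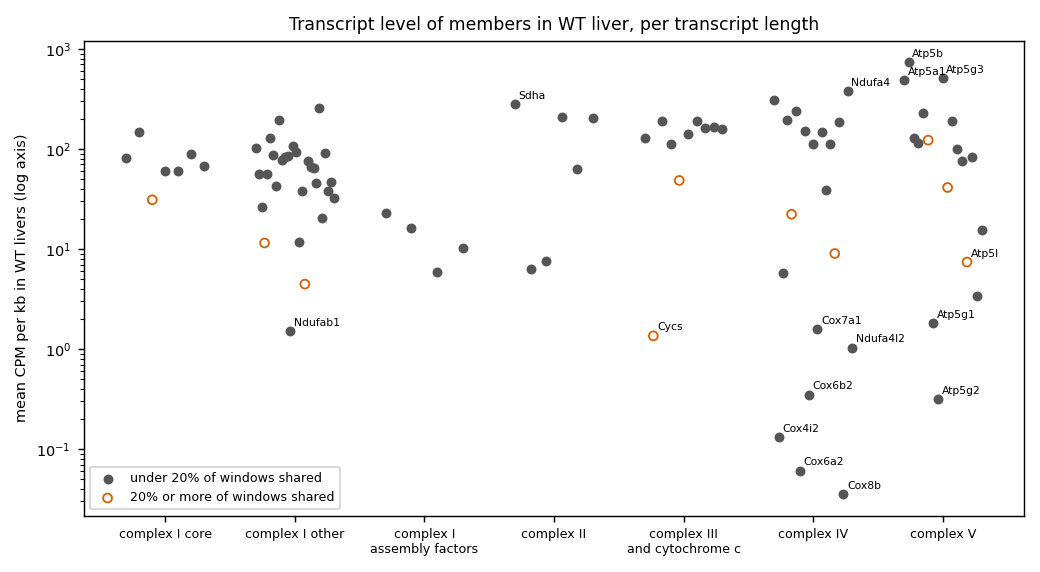
Mean CPM per kb of transcript in WT livers (log axis, n = 3 mice) for each member with reads there, grouped by complex; open circles are members with at least 20% of their 50-base windows found in other genes. Atp5b lies highest at 736 CPM per kb, and Cox8b, Cox6a2 and Cox4i2, complex IV forms known from other tissues, lie lowest.

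No member passed the test in any genotype. Of the 87 members tested, 0 passed an adjusted p of 0.05 (edgeR quasi-likelihood test, Benjamini-Hochberg over all 13684 genes) in AEG1, MYC or AEG1_MYC livers against WT livers. The share of all genes that passed was 0% for AEG1, 0% for MYC and 0.263% for AEG1_MYC. An unadjusted p under 0.05 was reached by 0 higher and 0 lower members in AEG1 livers (1.99% and 1.93% of all genes), by 1 higher and 1 lower member in MYC livers (1.84% and 1.63% of all genes), and by 4 higher and 3 lower members in AEG1_MYC livers (9.66% and 7.56% of all genes). A test for any difference among the 4 genotypes gave 0 members called, against 0.519% of all genes, and its lowest adjusted p was 0.308, for Cox7a2l. With limma-voom the counts against WT were also 0, against 0%, 0% and 0.168% of all genes. With DESeq2 they were 0, 0 and 1, against 0.11%, 0.205% and 4.77% of all genes, and the 1 member was Cox7a2l in AEG1_MYC livers.

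Taken as a sum, members held 11423 ± 339 CPM in AEG1 livers, 11553 ± 347 CPM in MYC livers and 10948 ± 809 CPM in AEG1_MYC livers, against 11231 ± 594 CPM in WT livers (SD, n = 3 each). The lowest library, AEG1_MYC replicate 1 at 10146 CPM, and the highest, MYC replicate 3 at 11932 CPM, bracketed a WT range that overlapped every other genotype. AEG1_MYC replicate 2 held 10934 CPM of members, inside the WT range of 10546 to 11615 CPM on this scale. The Alb-dominated sum of hepatocyte markers was also lower in the other transgenic livers than in WT livers, 79050 to 87304 CPM in AEG1 and 65884 to 83430 CPM in MYC livers. Apoa1 lay below its WT range (4461 to 6488 CPM) in all AEG1 livers (3978 to 4283 CPM) and all MYC livers (3242 to 4072 CPM). Tat lay below its WT range (1209 to 1807 CPM) in all MYC livers (636 to 1071 CPM), and AEG1 livers lay on both sides of that range (818 to 2511 CPM). Ttr (5079 to 5157 CPM) and Cps1 (3381 to 3966 CPM) in AEG1 livers lay inside their WT ranges, as did Cps1 (3163 to 3419 CPM) and Hnf4a (764 to 840 CPM) in MYC livers. The part of these markers in the results here was not tested.

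The direction in AEG1_MYC livers depended on the scaling. As a share of all reads in genes, with no TMM factor, members took 1.11% ± 0.00857 in AEG1 livers, 1.19% ± 0.0586 in MYC livers and 1.17% ± 0.132 in AEG1_MYC livers, against 1.06% ± 0.0296 in WT livers (SD, n = 3 each). On that scale all AEG1 and all MYC libraries lay above all WT libraries, and AEG1_MYC replicate 2, at 1.30%, was the highest of the 12, and Alb alone took 2.87% of its reads, against 7.63% to 9.02% in WT livers. The fit was repeated with total reads alone, an alternative chosen after the data were seen, and the median log2 fold change of all genes was then 0.04 for AEG1, 0.12 for MYC and 0.19 for AEG1_MYC, each against WT livers. The member medians on that scale were 0.10 for AEG1, 0.15 for MYC and 0.13 for AEG1_MYC against WT livers, so the AEG1_MYC median had the opposite sign to that with TMM. Relative to the median of all genes the AEG1_MYC member median was -0.06 on that scale and -0.05 with TMM. Again 0 members were called, against 0%, 0% and 0.3% of all genes.

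With TMM the fitted differences were small. The median member log2 fold change was 0.05 for AEG1, 0.02 for MYC and -0.04 for AEG1_MYC against WT livers, and the median over all genes tested was 0.00, 0.00 and 0.01. Fitted values were above 0 for 69 of 87 members in AEG1 livers, 57 in MYC livers and 32 in AEG1_MYC livers, against 49.7%, 49.4% and 51.6% of all genes. Without AEG1_MYC replicates 1 and 2 together, the AEG1_MYC libraries with a negative member median, the AEG1_MYC median was 0.06. That value rests on AEG1_MYC replicate 3 alone and followed from the choice of mice. The 3 comparisons share the WT libraries, of which WT replicate 1 had the lowest member values, with 11 of 87 members above the WT mean. The 95% interval of the fold change lay within 1.5-fold either way for 79 members (AEG1), 76 members (MYC) and 73 members (AEG1_MYC) against WT, against 47%, 47.6% and 39.4% of all genes. It lay within 2-fold for 84, 84 and 83 members, against 71.6%, 72.2% and 65.6% of all genes. Of the 13684 genes tested, 8101 averaged at least 10 CPM. Values of all genes set beside intervals, ratios and standard errors, here and below, were not matched to members in level. The members outside the 2-fold bound were Atp5g2, Cox7a1 and Ndufa4l2 in each of the 3 comparisons, together with Atp5s in AEG1_MYC livers, and the first 3 of these stayed below 3 CPM in every library.

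Members also varied little between libraries. The ratio of the highest to the lowest of the 12 libraries had a median of 1.34 over members, and it was under 1.5 for 60 of 87 members and under 2 for 81, against 25.2% and 52.8% of all genes. The steadiest was Ndufa1, with 43.9, 44.9 and 43.01 CPM in AEG1 livers, 41.9, 39.9 and 44.1 in MYC livers and 43.6, 40.6 and 44.6 in AEG1_MYC livers, against 41.5, 44.1 and 43.9 in WT livers, a ratio of 1.13 and overlapping genotypes. The widest were Ndufa4l2 with a ratio of 7.01, Atp5s with 3.80, Cox7a1 with 3.55 and Atp5g2 with 3.43, then Cox7c with 2.14 and Ndufab1 with 2.11. The median SD of log2 CPM within a genotype was 0.079 over members in AEG1, 0.073 in MYC, 0.147 in AEG1_MYC and 0.089 in WT livers. Over all genes averaging at least 10 CPM it was 0.146, 0.125, 0.225 and 0.144 in the same order, so the spread among AEG1_MYC mice was the widest on both counts.

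**Figure D2:**
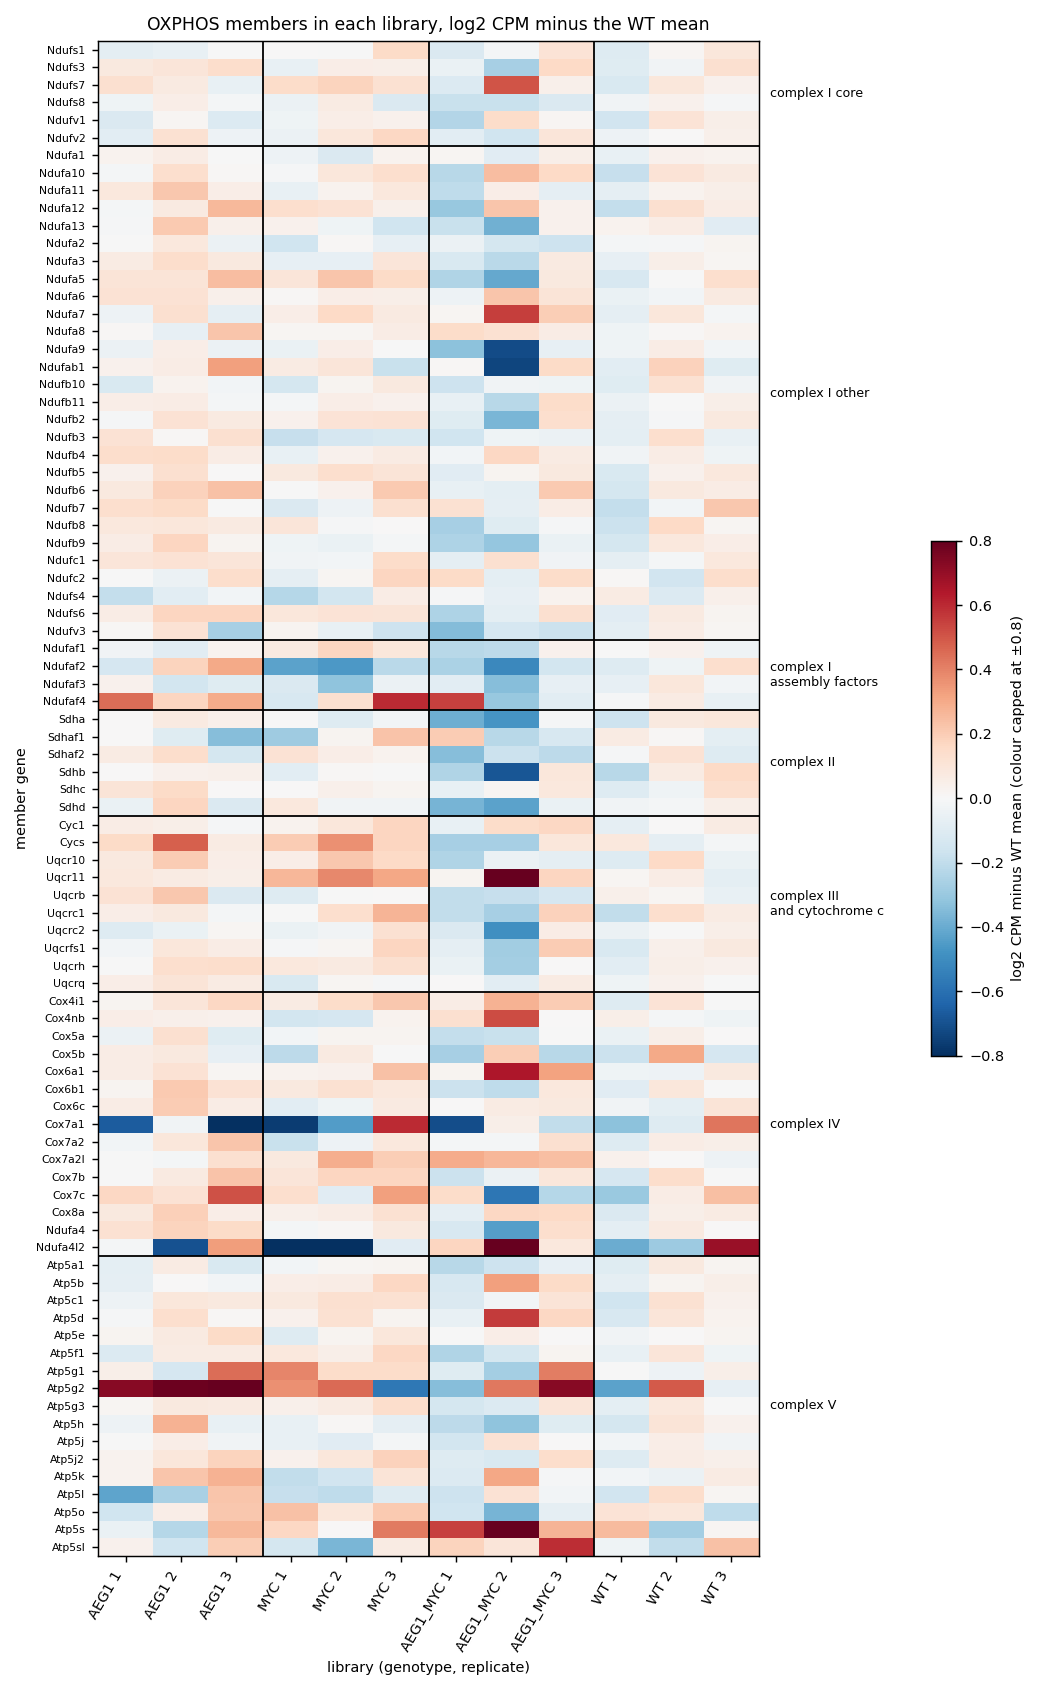
Log2 CPM minus the WT mean (colour, capped at ±0.8) for 86 of the 87 tested members, grouped by complex, in 12 libraries ordered AEG1, MYC, AEG1_MYC, WT. Columns are nearly white except AEG1_MYC replicate 2, where members deviate both up and down (interquartile range over the 87 members 0.40, against 0.08 to 0.20 elsewhere).

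The AEG1_MYC mice did not form a uniform group. The median member deviation from the WT mean was -0.12, -0.08 and 0.06 log2 units in AEG1_MYC replicates 1, 2 and 3. In replicate 2, 8 members lay more than 0.5 log2 units above the WT mean and 5 lay more than 0.5 below it, which are more than in any other library. Over all genes in that library, 20.6% lay above and 19.5% below these limits. Of the 87 members, 29 had their lowest value in AEG1_MYC replicate 2 and 23 in replicate 1, while 17 had their highest value in replicate 2. In replicate 3 only 5 members were highest and the hepatocyte markers reached the upper end of the AEG1_MYC range, which was 70758 CPM.

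Complex I core subunits, which hold the flavin and the iron-sulfur clusters, overlapped across genotypes. Their sum was 849, 891 and 857 CPM in AEG1 livers, 872, 910.1 and 937 in MYC livers and 793, 924 and 924 in AEG1_MYC livers, against 815, 898 and 908 in WT livers, and all 4 genotypes overlapped. Ndufs8, which carries iron-sulfur clusters, measured 53.4, 53.3 and 55.8 CPM in AEG1_MYC livers, against 59.3, 61.9 and 60.05 in WT livers. All 3 AEG1_MYC values of Ndufs8 lay below the WT values, and the fitted log2 fold change was -0.16 ± 0.08 (SE) with an adjusted p of 0.312, and 0.02 when scaled to total reads alone. The NADH-binding subunit Ndufv1 measured 136, 149 and 136 CPM in AEG1 livers, against 132, 159 and 152 in WT livers and had a log2 fold change of -0.07 ± 0.11, with overlapping groups.

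Among the 28 accessory complex I subunits the medians were 0.08 for AEG1, 0.02 for MYC and -0.05 for AEG1_MYC against WT livers. Across members of all classes, groups did not overlap for 10 higher and 0 lower members in AEG1 against WT livers, against 5.16% and 5.53% of all genes. In MYC against WT livers 9 members were higher and 2 lower without overlap, against 5.47% and 6.09%, and in AEG1_MYC against WT livers 3 were higher and 8 lower, against 9.81% and 9.65%. Scaled to total reads alone, the counts were 28 higher and 0 lower in AEG1 livers (7.53% and 3.09% of all genes), 50 and 0 in MYC livers (16% and 1.65%) and 20 and 0 in AEG1_MYC livers (18.1% and 3.79%), so each gap below WT that is described here holds with TMM scaling and not with total reads. Of the 10 in AEG1 livers, 5 were accessory subunits of complex I: Ndufa3, Ndufa11, Ndufb4, Ndufb6 and Ndufc1. Ndufb6, a membrane arm subunit, measured 46.5, 50.03 and 51.7 CPM in AEG1 livers, against 39.8, 46.4 and 45.9 in WT livers, a log2 fold change of 0.17 ± 0.11 with an adjusted p of 0.9997. Ndufs6, which binds zinc, measured 36.6, 39.6 and 39.6 CPM in AEG1 livers, against 33.03, 36.9 and 35.7 in WT livers, and Ndufs4, another subunit of the peripheral arm, measured 57.1, 61.4 and 63.97 CPM in AEG1 livers, against 68.1, 60.3 and 67.1 in WT livers. Both pairs of groups overlapped.

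Ndufa9, an accessory subunit near the quinone site, had the lowest p of any lower member in AEG1_MYC livers. It measured 118, 127 and 118 CPM in AEG1 livers, 118, 126 and 121 in MYC livers and 97.03, 74.3 and 116 in AEG1_MYC livers, against 119, 127 and 120.0 in WT livers. All 3 AEG1_MYC values were below all WT values, replicate 2 by the most and replicate 3 by little. The log2 fold change was -0.35 ± 0.14 (SE), with an adjusted p of 0.234. Without AEG1_MYC replicate 3 the fold change was -0.50 with an adjusted p of 0.0413, one of 687 genes called then (4.95% of genes tested), and it is the member on which leaving out 1 library changed the call against WT. Without AEG1_MYC replicates 1 and 2 together the fold change was -0.06, from AEG1_MYC replicate 3 alone.

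Ndufa5, another accessory subunit of the peripheral arm, measured 40.2, 40.2 and 44.5 CPM in AEG1 livers, 40.1, 43.8 and 41.6 in MYC livers and 31.7, 28.2 and 39.5 in AEG1_MYC livers, against 34.2, 37.3 and 41.2 in WT livers. AEG1_MYC replicates 1 and 2 were the lowest of the 12 libraries and replicate 3 was close to the other genotypes. Against AEG1 livers its log2 fold change was -0.33 ± 0.13 with an adjusted p of 0.22, and against MYC livers -0.34 ± 0.13 with 0.257. Without AEG1_MYC replicate 3 Ndufa5 and Ndufa9 passed the test in both of these comparisons, Ndufa5 with -0.46 and -0.48 (adjusted p 0.0442 and 0.0455) and Ndufa9 with -0.49 and -0.51 (adjusted p 0.0447 and 0.0448), where 4.54% and 3.24% of genes passed.

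Other accessory subunits with low p values went in both directions. Ndufb9, the accessory subunit with the highest mean CPM, measured 189, 204 and 184 CPM in AEG1 livers, 177, 175 and 179 in MYC livers and 153, 146 and 175 in AEG1_MYC livers, against 165, 192 and 188 in WT livers, with a log2 fold change of -0.20 ± 0.10 against WT and overlapping groups. Ndufa7 measured 41.3, 59.9 and 46.9 CPM in AEG1_MYC livers, against 38.9, 43.5 and 40.4 in WT livers, with the highest value in replicate 2, overlap between groups and a log2 fold change of 0.27 ± 0.13 (adjusted p 0.305). Ndufb3, a membrane arm subunit, measured 25.7, 26.7 and 26.9 CPM in MYC livers and 26.1, 28.5 and 28.3 in AEG1_MYC livers, against 31.7, 29.5 and 31.98 in AEG1 livers and 27.7, 32.04 and 28.1 in WT livers. Its MYC values lay below all WT values while AEG1_MYC values overlapped them, and the carrier difference was -0.16 ± 0.06 with an adjusted p of 0.388. Ndufa2 measured 66.01, 74.2 and 70.6 CPM in MYC livers, against 72.99, 73.4 and 74.9 in WT livers, with overlap, and Ndufa13, which has also been studied as a cell death regulator, measured 72.7, 69.3 and 63.6 CPM in MYC livers and 62.7, 54.3 and 72.7 in AEG1_MYC livers, against 70.4, 81.97 and 73.1 in AEG1 livers and 72.4, 74.2 and 66.7 in WT livers, again with overlap.

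Complex I assembly factors, which help build the enzyme and are not part of it, included the 1 member whose Myc carriers and non-carriers did not overlap. Ndufaf2, which binds a late assembly intermediate, measured 8.12, 7.94 and 9.41 CPM in MYC livers and 9.15, 7.62 and 9.89 in AEG1_MYC livers, against 9.95, 12.4 and 13.5 in AEG1 livers and 10.2, 10.7 and 12 in WT livers. All 6 libraries with the Myc transgene lay below all 6 libraries without it, the highest carrier at 9.89 CPM and the lowest non-carrier at 9.95 CPM, so the gap between the groups was narrow. Ndufaf2 was the 1 member of 87 lower without overlap in this comparison, and 0 were higher, against 0.395% and 0.687% of all genes. The log2 fold change between carriers and non-carriers was -0.40 ± 0.11 (SE) with an adjusted p of 0.23 by edgeR and 0.0454 by DESeq2. Over the alternatives the adjusted p ran from 0.0454 to 0.697 and the fold change from -0.46 to -0.27. Scaled to total reads alone, the highest carrier stood at 9.87 CPM and the lowest non-carrier at 9.76 CPM, so the groups overlapped, and 2 members were higher and 0 lower without overlap (1.63% and 0.095% of all genes). Whether reads of overlapping genes on the opposite strand entered the counts cannot be told, since the strand setting is not given in the sources used here.

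Ndufaf4, another assembly factor, spread widely within genotypes. It measured 50.9, 42.03 and 45.9 CPM in AEG1 livers, 34.2, 40.8 and 56.5 in MYC livers and 54.5, 30.2 and 35.2 in AEG1_MYC livers, against 37.1, 39.1 and 35.8 in WT livers. All AEG1 values lay above all WT values, with a log2 fold change of 0.31 ± 0.22 and an adjusted p of 0.9997, while MYC and AEG1_MYC values lay on both sides of WT. Ndufaf3 stayed between 6.88 and 9.30 CPM in all libraries, with a log2 fold change of -0.16 ± 0.13 in MYC livers. Ndufaf1 measured 28.8, 29.1 and 34.5 CPM in AEG1_MYC livers, against 35.4, 37.96 and 35.8 in MYC livers. Its AEG1_MYC values were all lower than its MYC values, with a log2 fold change of -0.24 ± 0.09 and an adjusted p of 0.261.

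Complex II, succinate dehydrogenase, had the lowest class median in AEG1_MYC against WT livers, at -0.25 over 6 members with 1 of 6 above 0. The medians in AEG1 and MYC livers were 0.02 and 0.01. Scaled to total reads alone the AEG1_MYC median was -0.07, the 1 negative class median of that comparison. Summed complex II transcripts reached 1550.0, 1644 and 1548 CPM in AEG1 livers, 1544, 1489 and 1531 in MYC livers and 1244, 1158 and 1551 in AEG1_MYC livers, against 1402, 1592 and 1646 in WT livers. AEG1_MYC replicates 1 and 2 were the lowest of the 12 libraries and replicate 3 lay inside the WT range. As class means this was 1581 ± 55.0 CPM in AEG1, 1521 ± 28.9 CPM in MYC and 1318 ± 207 CPM in AEG1_MYC livers, against 1547 ± 128 CPM in WT livers (SD, n = 3 each).

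The complex II members differed in how far they followed that pattern. Sdha, the flavoprotein that oxidises succinate, measured 814, 854 and 837 CPM in AEG1 livers, 813, 757 and 801 in MYC livers and 619, 586 and 809.8 in AEG1_MYC livers, against 726, 857 and 865 in WT livers. Replicates 1 and 2 of AEG1_MYC lay below every other library for Sdha and replicate 3 did not. Sdhb, the iron-sulfur subunit, measured 199.9, 147 and 251 CPM in AEG1_MYC livers, against 202, 247 and 263 in WT livers, where replicate 2 was lowest and the groups overlapped. Sdhd, a membrane anchor, measured 193, 185 and 240.2 CPM in AEG1_MYC livers, against 244, 246 and 257 in WT livers, with all AEG1_MYC values below WT, a log2 fold change of -0.27 ± 0.12 and an adjusted p of 0.29. Sdhc, the other anchor, measured 190.1, 200.1 and 209.6 CPM in AEG1_MYC livers, against 184, 193 and 218 in WT livers, with overlap. The assembly factor Sdhaf2, which places the flavin in Sdha, measured 31.3, 33.05 and 27.2 CPM in AEG1 livers, 32.5, 31.1 and 30.6 in MYC livers and 23.7, 26.6 and 25.9 in AEG1_MYC livers, against 29.7, 32.5 and 27.9 in WT livers. Its AEG1_MYC values lay below those of the other 3 genotypes in every library with TMM, by -0.24 ± 0.10 against WT (adjusted p 0.255) and -0.31 ± 0.10 against MYC (adjusted p 0.227). Scaled to total reads alone, they still lay below all MYC values. AEG1_MYC replicate 2, at 31.6 CPM, then lay above AEG1 replicate 3, at 26.7 CPM, and above WT livers, at 26.2 to 29.7 CPM. Sdhaf1, an assembly factor for the iron-sulfur subunit, stayed between 12.5 and 18.6 CPM in all libraries, with a log2 fold change of -0.14 ± 0.16 in AEG1 livers.

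Complex III and cytochrome c had class medians of 0.07 for AEG1, 0.10 for MYC and -0.09 for AEG1_MYC against WT livers. The core protein Uqcrc2, the class member with the highest mean CPM, measured 340.0, 353 and 369 CPM in AEG1 livers, 353, 358 and 396 in MYC livers and 336, 259.6 and 380.1 in AEG1_MYC livers, against 353, 365 and 378 in WT livers. AEG1_MYC replicate 2 was the lowest library for Uqcrc2 and the other libraries overlapped. The small subunit Uqcr11 measured 53.6, 52.8 and 52.1 CPM in AEG1 livers, 60.6, 65.9 and 62.6 in MYC livers and 51.3, 88.1 and 56.9 in AEG1_MYC livers, against 51, 52.6 and 47.9 in WT livers. MYC values lay above all AEG1 and WT values, while among AEG1_MYC livers replicate 2 was the highest of all libraries and replicate 1 was at the WT level. The log2 fold change was 0.32 ± 0.17 in MYC livers (adjusted p 0.9994), 0.37 ± 0.17 in AEG1_MYC livers (adjusted p 0.277) and 0.31 ± 0.12 between Myc carriers and non-carriers (adjusted p 0.362).

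Smaller differences stood beside it in the same class. Uqcr10 measured 86.8, 94.9 and 85.4 CPM in AEG1 livers, 85.6, 95.7 and 92.1 in MYC livers and 69.6, 79.6 and 78.5 in AEG1_MYC livers, against 76.6, 91.9 and 79.3 in WT livers, and its AEG1_MYC values lay below all AEG1 and MYC values with TMM. Scaled to total reads alone they were 71.2, 94.6 and 77.9 CPM. AEG1 livers were then at 85.8, 89.2 and 83.9 and MYC livers at 86.4, 98.1 and 96.6, so the groups overlapped. Cytochrome c itself, Cycs, measured 4.71, 5.92 and 4.42 CPM in AEG1 livers, 4.87, 5.46 and 4.77 in MYC livers and 3.50, 3.50 and 4.49 in AEG1_MYC livers, against 4.48, 4.02 and 4.19 in WT livers. Its MYC values lay above the WT values and above the AEG1_MYC values, and its log2 fold change was 0.25 ± 0.17 in MYC livers against WT. Uqcrb, which shares 43.2% of its windows with other genes, measured 24.1, 25.9 and 26.01 CPM in MYC livers and 22.7, 22.8 and 23.6 in AEG1_MYC livers, against 28.2, 30.2 and 23.9 in AEG1 livers and 26.7, 26.2 and 24.9 in WT livers, with a carrier difference of -0.14 ± 0.07 and overlapping groups.

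Complex IV, cytochrome c oxidase, was led by Cox4i1, the common form of its regulatory subunit 4. Cox4i1 measured 237, 249 and 262 CPM in AEG1 livers, 244, 258 and 272 in MYC livers and 243, 283 and 268 in AEG1_MYC livers, against 217, 251 and 233 in WT livers, with overlap between all groups. Cox7a2l is not a catalytic subunit but helps complexes III and IV join into supercomplexes. It had the lowest p of all members in AEG1_MYC against WT livers, between Myc carriers and non-carriers and in the test of any genotype. It measured 46.7, 53.95 and 50.7 CPM in MYC livers and 54.3, 53.1 and 52.2 in AEG1_MYC livers, against 44, 43.7 and 48.2 in AEG1 livers and 45.3, 44.3 and 42.9 in WT livers. All AEG1_MYC values and all MYC values lay above all WT values, and the AEG1_MYC values also lay above all AEG1 values. 1 AEG1 library, at 48.2 CPM, lay above the lowest MYC library, at 46.7 CPM.

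The size of the Cox7a2l difference was modest and its error small. The log2 fold change was 0.27 ± 0.08 (SE) in AEG1_MYC against WT livers, with a 95% interval of 0.09 to 0.45 and an adjusted p of 0.165 by edgeR and 0.0306 by DESeq2. It was 0.19 ± 0.08 in MYC against WT livers (adjusted p 0.9994) and 0.21 ± 0.06 between Myc carriers and non-carriers, with an adjusted p of 0.227 by edgeR and 0.0217 by DESeq2. Over the alternatives the fold change in AEG1_MYC against WT livers ran from 0.25 to 0.45 and its adjusted p from 0.0306 to 0.851. Of its 50-base windows 17.7% recur in other genes.

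Cox6a1, the form of subunit 6A found outside muscle, measured 143, 149 and 139 CPM in AEG1 livers, 141, 141 and 162 in MYC livers and 139, 215 and 172 in AEG1_MYC livers, against 134, 133 and 145 in WT livers. AEG1_MYC replicates 2 and 3 were the highest of the 12 libraries and replicate 1 overlapped WT, with a log2 fold change of 0.35 ± 0.14 (adjusted p 0.241). Cox4nb, which carries a Cox4 name for its place beside Cox4i1 and encodes a subunit of an endoplasmic reticulum complex, measured 30.8, 40.7 and 28.3 CPM in AEG1_MYC livers, against 29.2, 27.98 and 27.6 in WT livers. It matched the symbol rule but is no part of complex IV, and its value in replicate 2 was the highest of the 12 libraries.

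**Figure D3:**
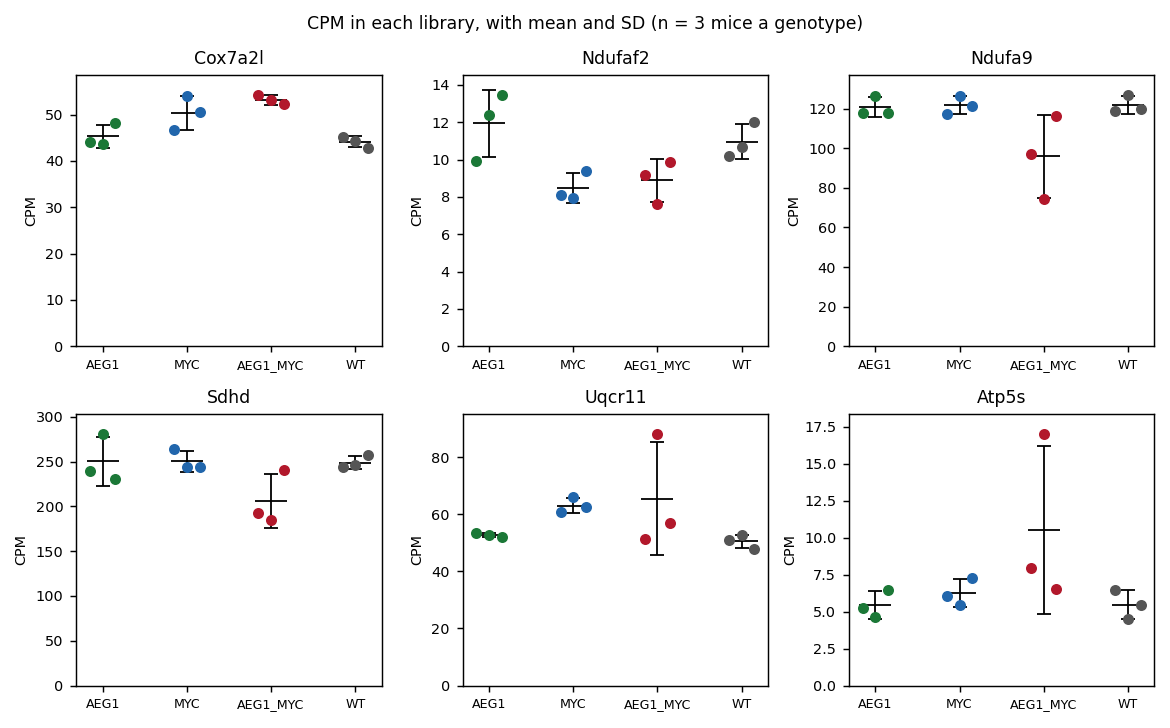
CPM of 6 members in each library (points) with the genotype mean and SD (bars, n = 3 mice each); the axes start at 0. Cox7a2l is higher and Ndufaf2 lower in both MYC and AEG1_MYC livers than in WT livers, while Ndufa9, Sdhd, Uqcr11 and Atp5s are spread widely among the AEG1_MYC mice.

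Forms of complex IV subunits known from muscle, heart, lung or testis were at the edge of detection. Cox7a1, the heart and muscle form of subunit 7A, measured 0.446, 0.728 and 0.326 CPM in AEG1 livers, 0.414, 0.529 and 1.16 in MYC livers and 0.429, 0.771 and 0.642 in AEG1_MYC livers, against 0.580, 0.689 and 1.03 in WT livers. The highest library was MYC replicate 3, which also held the most muscle marker RNA: the 9 markers summed to 5.19 CPM there, against 0.21 to 1.67 CPM in the other libraries, and 4.01 CPM of that was Tnnt2. Smooth muscle and pericyte markers summed to 146 CPM in the same library, and their part in the Cox7a1 value was not tested. Ndufa4l2, a hypoxia-linked relative of Ndufa4, measured 0.892, 0.534 and 1.15 CPM in AEG1 livers, 0.414, 0.474 and 0.843 in MYC livers and 1.02, 2.90 and 0.963 in AEG1_MYC livers, against 0.671, 0.727 and 1.49 in WT livers, with the highest value in AEG1_MYC replicate 2. Its log2 fold change in AEG1_MYC against MYC livers was 1.49 ± 0.53 (adjusted p 0.245), and against WT livers the groups overlapped.

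The untested forms were lower still. Cox6b2, the testis form of subunit 6B, stayed between 0.059 and 0.23 CPM in all libraries. Cox4i2, Cox6a2 and Cox8b stayed at or below 0.40 CPM. Their partners in liver were abundant in every library, Cox6a1 between 133 and 215 CPM and Cox8a between 94.4 and 116.7 CPM. Among brown fat markers Ucp1 had 0 reads in all 12 libraries, and among muscle markers Myh6 was at 0 in 11 of 12. Other markers of both lists did have reads. In the brown fat list Ppara stood at 365 to 681 CPM, and Cidea reached 3.41 CPM in AEG1 replicate 3 and 8.39 CPM in AEG1_MYC replicate 1. In the muscle list Tnnt2 stood at 0.031 to 4.01 CPM.

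Complex V had class medians of 0.04 for AEG1, 0.08 for MYC and -0.01 for AEG1_MYC against WT livers. Atp5b, the catalytic beta subunit and the member with the most reads, measured 1337, 1410.1 and 1389.7 CPM in AEG1 livers, 1464, 1468 and 1579.7 in MYC livers and 1291, 1771 and 1567 in AEG1_MYC livers, against 1342, 1430.0 and 1457 in WT livers. All MYC values lay just above all WT values and the AEG1_MYC values lay on both sides, with a log2 fold change of 0.09 ± 0.14 in MYC livers. Among the c-ring genes Atp5g3 measured 371, 388 and 386 CPM in AEG1 livers, 378, 385 and 405 in MYC livers and 333, 341 and 394 in AEG1_MYC livers, against 348, 389 and 367 in WT livers, with overlap throughout. Atp5g1 measured 8.76, 7.72 and 11.6 CPM in AEG1 livers, 11.1, 9.39 and 9.38 in MYC livers and 7.93, 7.02 and 11.3 in AEG1_MYC livers, against 8.48, 8.23 and 8.76 in WT livers, and its MYC values lay above all WT values. Atp5g2 had the largest fitted difference in AEG1 livers, 0.88 ± 0.47 on the log2 scale, from 0.418, 0.437 and 0.452 CPM in AEG1 livers, against 0.153, 0.345 and 0.214 in WT livers, which is at most 18 reads in a library, and its adjusted p was 0.9997.

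Atp5s had the largest fitted difference of any member in AEG1_MYC livers. It is named for a coupling factor of the ATP synthase, now called Dmac2l, and is not a core subunit. It measured 5.21, 4.61 and 6.48 CPM in AEG1 livers, 6.08, 5.43 and 7.25 in MYC livers and 7.93, 17.01 and 6.55 in AEG1_MYC livers, against 6.47, 4.48 and 5.47 in WT livers. All AEG1_MYC values lay above all WT values, 2 of them narrowly, and replicate 2 stood far above the rest. The log2 fold change was 0.94 ± 0.32 (adjusted p 0.193), and across the alternatives it ran from 0.26 to 1.2, the low end without AEG1_MYC replicates 1 and 2. Atp5sl, now Dmac2, an assembly factor of complex I despite its name, measured 41.8, 39.6 and 55.6 CPM in AEG1_MYC livers, against 33.5, 28.6 and 38.6 in MYC livers, with no overlap and a log2 fold change of 0.44 ± 0.17 (adjusted p 0.268).

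Peripheral and membrane subunits of the ATP synthase completed the class. Atp5o, which joins the stalk to the catalytic head, measured 61.5, 71.3 and 79.6 CPM in AEG1 livers, 80.9, 73.2 and 79.6 in MYC livers and 61.5, 53.02 and 65.4 in AEG1_MYC livers, against 74.2, 73.1 and 59.8 in WT livers. Its AEG1_MYC values lay below its MYC values by -0.38 ± 0.13 on the log2 scale (adjusted p 0.231) and overlapped WT. Atp5h, a stalk subunit, measured 26.9, 28.2 and 26.6 CPM in MYC livers and 24.2, 22.5 and 26.2 in AEG1_MYC livers, against 27.3, 34.02 and 26.96 in AEG1 livers and 25.5, 30.1 and 28.8 in WT livers, a carrier difference of -0.16 ± 0.08 with overlap. Atp5k and Atp5l, small subunits of the membrane part, measured 29.03, 33.1 and 34.4 CPM in AEG1 livers, against 28.03, 27.5 and 29.8 in WT livers for Atp5k and 2.98, 3.35 and 4.69 CPM in AEG1 livers, against 3.60, 4.44 and 4.06 in WT livers for Atp5l, both with overlap.

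**Figure D4:**
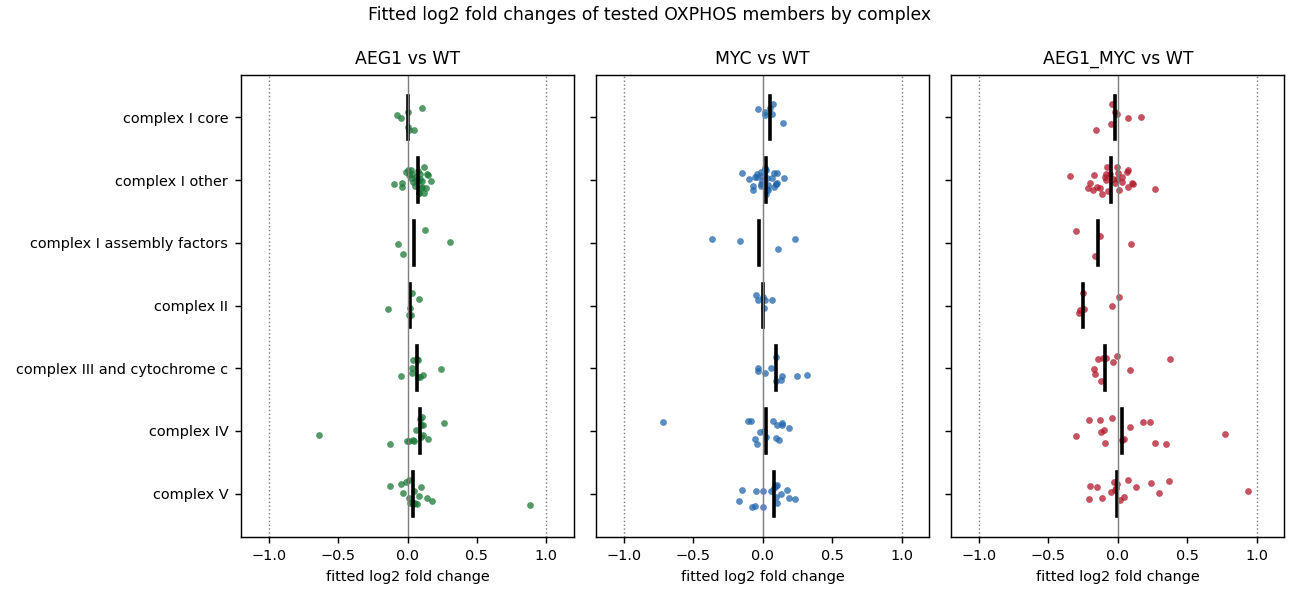
Fitted log2 fold change (TMM scaling) of each tested member (points) against WT livers in AEG1, MYC and AEG1_MYC livers, grouped by complex, with the class median (black bar); dotted lines mark 2-fold either way. Class medians lie between -0.25, for complex II in AEG1_MYC livers (-0.07 when scaled to total reads alone), and 0.10, for complex III and cytochrome c in MYC livers, and no member passed the test.

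AEG1_MYC livers were also set against the livers with a single transgene, and 0 members were called. Against AEG1 livers 0.322% of all genes passed and against MYC livers 0.205%, and the median member log2 fold changes were -0.10 and -0.06, against 0.01 over all genes in both, or 0.04 and -0.02, against 0.15 and 0.06 over all genes, when scaled to total reads alone. At an unadjusted p under 0.05 there were 2 higher and 10 lower members against AEG1 livers (10.1% and 7.33% of all genes) and 4 higher and 8 lower against MYC livers (8.86% and 6.31%). Groups did not overlap for 2 higher and 14 lower members against AEG1 livers (9.6% and 8.24% of all genes), and for 2 higher and 15 lower against MYC livers (9.64% and 8.85%). Scaled to total reads alone, the counts were 8 higher and 3 lower against AEG1 livers (14.3% and 4.43%). Against MYC livers they were 2 and 11 on that scale (8.93% and 7.59%), so the direction against AEG1 livers depended on the scaling. The 95% interval lay within 1.5-fold for 71 members against AEG1 livers and 72 against MYC livers (38.8% and 39.8% of all genes), and within 2-fold for 83 in both (65.3% and 66.4%). These comparisons share the AEG1_MYC libraries. DESeq2 and limma-voom also called 0 members in both, against 5.13% and 3.44% of all genes for DESeq2 and 0.424% and 0.175% for limma-voom.

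The departure of AEG1_MYC livers from the sum of the single transgene effects was tested as an interaction. It called 0 members, against 0.0219% of all genes, and DESeq2 and limma-voom called 0 as well, against 1.17% and 0.0365%. The median member interaction was -0.11 and 68 of 87 members were negative, while 51.1% of all genes were positive. At an unadjusted p under 0.05 there were 0 positive and 6 negative members, against 5.67% and 3.58% of all genes: Ndufa5, Uqcr10, Cycs, Atp5o, Sdhaf2 and Uqcrh. Ndufa5 had the lowest p of these, with an interaction of -0.48 ± 0.18 (adjusted p 0.481), and Cycs had the largest, -0.64 ± 0.25 (adjusted p 0.488). Without AEG1_MYC replicates 1 and 2 together, the AEG1_MYC libraries with a negative member median, the median interaction was -0.02. For that genotype it then rested on AEG1_MYC replicate 3 alone.

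Carriers of the Myc transgene, AEG1 present or absent, were set against non-carriers with 6 mice a side. The comparison called 0 members, against 0.11% of all genes, by edgeR and by limma-voom (0.234%), and 2 by DESeq2 (2.23%), Cox7a2l and Ndufaf2. At an unadjusted p under 0.05 there were 3 higher and 3 lower members, against 6.53% and 4.55% of all genes: Cox7a2l, Uqcr11 and Atp5s higher, Ndufaf2, Ndufb3 and Ndufb9 lower. The median member log2 fold change was -0.03, with 30 of 87 above 0 against 50.6% of all genes, or 0.10 with 73 of 87 above 0 against 76.6% of all genes when scaled to total reads alone, and the 95% interval lay within 1.5-fold for 82 of 87 members, against 59.9% of all genes.

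Of the genes around the pathway, 0 were called in each list and each comparison. In AEG1_MYC against WT livers an unadjusted p under 0.05 was reached by 4 higher and 0 lower genes of the citric acid cycle, 0 and 2 assembly factors, 1 and 1 genes of coenzyme Q synthesis, 3 and 0 genes of import and carriers, and 2 and 0 regulators of biogenesis. Over all genes 9.66% were higher and 7.56% lower at that p, and 51.6% were positive. All values of these lists are with TMM. Scaled to total reads alone 72.5% of all genes were positive in that comparison, and the lists were not summarised on that scale. The citric acid cycle had, in that comparison, a median log2 fold change of 0.05, with 13 of 18 positive, and the largest values were those of the NADP-linked isocitrate dehydrogenase Idh2, at 0.98 ± 0.23 (SE, adjusted p 0.107), and of Idh3a, a subunit of the NAD-linked enzyme, at 0.81 ± 0.20 (adjusted p 0.122). Assembly factors outside the symbol rule had 11 of 26 positive and a median of -0.08, and the lowest p was that of Taco1, a translation activator for a mitochondrial complex IV subunit, at -0.34 ± 0.12. Coenzyme Q synthesis had 7 of 13 positive, a median of 0.05, and values of 1.57 ± 0.60 for Coq10b and -1.14 ± 0.44 for Adck3. Protein import and inner membrane carriers had 22 of 25 positive and a median of 0.18, led by the translocase subunit Tomm5 at 0.43 ± 0.16. Regulators of mitochondrial biogenesis had 11 of 21 positive and a median of 0.03.

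Among those regulators the coactivator Ppargc1a had the lowest p. It measured 9.54, 12.4 and 21.1 CPM in AEG1 livers, 12.7, 10.95 and 12.8 CPM in MYC livers and 31.2, 36.1 and 21.6 CPM in AEG1_MYC livers, against 14.3, 8.38 and 18.7 CPM in WT livers. All AEG1_MYC values lay above all values of the other genotypes. Its log2 fold change against WT was 1.10 ± 0.33 with an adjusted p of 0.167, and Esrra, a nuclear receptor that works with it, had 0.41 ± 0.17. In that comparison 32 of 87 members were positive with TMM, against 51.6% of all genes. Scaled to total reads alone 73 of 87 were positive, against 72.5% of all genes.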

How the data were processed

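Total RNA of 12 livers was made into libraries with an Illumina TruSeq kit, per the labels' protocols. CASAVA 1.8.2, TopHat2 2.0.7, HTSeq (version not given in the sources used here) and the mouse build mm9 are named in the submitters' processing notes. The gene annotation and strand setting are not given in the sources used here. The authors deposited raw read counts per gene, with 5 summary lines that were left out of library sizes and tests. Between 11.5% and 15.5% of unique alignments fell in no gene and 0.634% to 0.746% were ambiguous. Mice were numbered 1 to 3 within a genotype in accession order, and the number only names a mouse. P-values measure the spread between mice.

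Counts were fitted over all 12 libraries and 4 genotypes with edgeR 4.0.16 in R 4.3.3 (TMM scaling, filterByExpr, robust quasi-likelihood F tests, two-sided, Benjamini-Hochberg adjustment over 13684 genes, called at an adjusted p under 0.05). Log2 fold changes carry standard errors and 95% intervals from the fit. The 7 comparisons were each transgenic genotype against WT, AEG1_MYC against each single transgenic, their interaction, and Myc carriers against non-carriers. A test for any genotype difference was added. Alternatives were DESeq2 1.42.0, limma-voom 3.58.1, other scalings (total reads alone was added after the data were seen) and filters, no robust step, fewer groups in the fit, and libraries left out. The procedure was tested on simulated counts.

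Members, lists and tests were chosen with earlier results of these data known. Values of single libraries, in the genotypes compared, are given for the 6 members of lowest p in each direction in the comparisons with WT and between carriers and non-carriers, for tissue-restricted forms and for the member of highest mean CPM in each complex, and for others where a result turns on them. The values of 1 member are not reported here. Other lists name at most 3 genes each. Class membership was set by hand from the symbols. Lengths are those of the longest coding transcript in GENCODE vM21. Promoter windows are RefSeq's in GRCm38.p6, a different build from mm9, and were matched by symbol.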

Additional observations from a re-analysis of the deposited data

Results flagged for a closer look

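Complex IV genes too low to be tested showed at least 10 reads, and a CPM above every WT library, in 3 libraries of transgenic livers; transgenic libraries with fewer reads that also lay above WT are not listed. Cox6a2, the heart and muscle form of subunit 6A, had 12 reads in AEG1_MYC replicate 1 (0.396 CPM) and 12 reads in AEG1_MYC replicate 2 (0.356 CPM), against at most 3 reads in any other library. Cox4i2, the lung form of subunit 4, had 10 reads in AEG1_MYC replicate 2 (0.296 CPM), and Cox8b, the heart and muscle form of subunit 8, had 10 reads in MYC replicate 3 (0.264 CPM). Muscle markers summed to 5.19 CPM in MYC replicate 3, against 0.36 to 0.51 CPM in the AEG1_MYC livers and 0.21 to 1.67 CPM in WT livers. Their part in these values was not tested. Groups of 3 mice were too small for a check of single outlying libraries.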

How the results depend on the processing

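Counts of members called and their median fold changes, 15 results in all, were recomputed 324 times, and 310 recomputations were scored as unchanged. A count was scored so when it stayed at 0. A median was scored so when it moved by less than 0.064, the pooled SD of the library medians within genotypes. That limit is larger than the medians against WT livers with TMM (0.05, 0.02 and -0.04). A median could therefore change sign and still be scored as unchanged. DESeq2 called 1 member in AEG1_MYC against WT livers, 2 between Myc carriers and non-carriers and 1 in the test of any genotype, against 0, and it called 652, 305 and 730 genes in all where edgeR called 36, 15 and 71. Leaving out 1 library gave 0 to 1 members in AEG1_MYC against WT livers, 0 to 2 against AEG1 livers and 0 to 2 against MYC livers, in each case the higher count without AEG1_MYC replicate 3, where 687, 630 and 450 genes were called in all. AEG1_MYC replicates 1 and 2 were also left out together, chosen because these libraries stand apart. The median member fold change was then 0.0645 against WT livers, 0.00648 against AEG1 livers and 0.0505 against MYC livers, and the median interaction was -0.0167. The member medians of those 2 mice were negative (-0.12 and -0.08) and that of AEG1_MYC replicate 3 was positive (0.06). The change against WT livers therefore followed from the choice of mice and is no check of the medians. The spread of the remaining AEG1_MYC mouse is taken from the other genotypes. Scaled to total reads alone, chosen after the data were seen, the median was 0.152 in MYC and 0.135 in AEG1_MYC livers against WT, 0.0392 in AEG1_MYC against AEG1 livers and 0.103 between carriers and non-carriers, where the median of all genes was 0.124, 0.193, 0.146 and 0.135. Leaving out 1 library moved the medians against WT between 0.02 and 0.08 for AEG1, 0.01 and 0.08 for MYC and -0.08 and 0.00 for AEG1_MYC. Of 1042 recomputed values of 48 named fold changes, 1034 kept direction and call, 4 passed the test newly (Cox7a2l and Ndufaf2 with DESeq2, Ndufa9 without AEG1_MYC replicate 3), and 4 changed sign. With total reads alone Ndufa2 and Ndufs4 in MYC livers were at 0.0563 and 0.0242 and Ndufs8 in AEG1_MYC livers at 0.0231, and Atp5l in AEG1 livers ran from -0.343 to 0.00254 with 1 library left out, the positive value without AEG1 replicate 1. The causes were not tested. No paired analysis was made, because the numbers 1 to 3 only name a mouse within its genotype and pair no mice between genotypes. With 3 mice a genotype the median standard error was 0.11 log2 units over members in AEG1_MYC against WT livers, against 0.21 over all genes. The 95% intervals, not the absence of calls, give the range of differences allowed by the fit. The fit gives each gene 1 spread shared by the 4 genotypes. Members spread more among AEG1_MYC mice (median SD of log2 CPM 0.147, against 0.073 to 0.089 in the other genotypes). Intervals of AEG1_MYC livers can therefore be too narrow, and those of AEG1 and MYC livers against WT too wide.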
